A study of Mus musculus with 17 samples.

Results

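The data describe 8 transcription factor genes that shape the nephron or maintain its proximal tubule, Hnf4a, Hnf4g, Nr1h4, Maf, Pax2, Pax8, Lhx1 and Emx2. They were chosen by name from 53313 gene identifiers shared by the count files, and all 8 were found under 1 identifier each in every file. Bulk RNA was sequenced from 17 mouse samples in 5 groups. Primary tubular epithelial cells (PTEC) were grown from tubular fragments of C57BL/6Rj wild-type kidneys, with 4 non-senescent cultures at day 6 that had not been irradiated and 4 senescent cultures at day 16 after 10 Gy of γ-irradiation, so irradiation and time in culture changed together and cannot be told apart. Whole kidney tissue came from untreated wild-type male mice of the same strain, 3 at 3 months, 3 at 12 months and 3 at 24 months. The methods of the study spell this strain C57BL/6JRj. Nothing in the labels says that the cultures came from separate animals, so p-values measure the spread between these samples.

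Total counts ran from 26963442 to 35409144 in the cultures and from 37311247 to 66894790 in the kidneys. The labels call the cultures proximal tubular cells. Of 26 genes of proximal tubule function, 20 had a mean of at least 1 CPM (counts scaled to library size) in non-senescent PTEC, but their summed level was between 378 and 2285 CPM against 25725 to 39437 CPM in 3-month kidneys. Slc34a1, the sodium phosphate cotransporter of the brush border, had 15, 6, 343 and 606 counts in the non-senescent cultures and at most 2 in a senescent culture. Endothelial markers summed to between 62.2 and 230 CPM and macrophage markers to between 24.6 and 71.9 CPM over the 8 cultures. Fibroblast and pericyte markers summed to 72.3 to 223 CPM in non-senescent and 111 to 351 CPM in senescent cultures, and podocyte markers to 55.3 to 99.0 and 157 to 301 CPM. Of 8 lymphocyte markers 5 were at 0 in every non-senescent and 2 in every senescent culture. Among the kidneys, 3-month replicate 3 and 12-month replicate 2 stood apart by GC content. Their GC-rich genes lay below their GC-poor genes by 0.384 and 0.475 on the log2 scale relative to the mean of all 9 kidneys (highest against lowest quintile of GC content), where the other 7 lay between -0.0757 and 0.286. They also had the lowest values of longest against shortest transcripts (-0.722 and -0.520), followed by 3-month replicate 1 (-0.265). The first principal component (46.7% of variance) did not set 12-month replicate 2 apart, since it was at 31.5 while 3-month replicate 1 was at 42.0 and 24-month replicates 1 and 3 were at -40.5 and -33.4. Leaving out 3-month replicate 1 also gave 0 of the 8 genes called between ages.

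The adult proximal tubule reabsorbs most of the filtered sugar, amino acids, phosphate and protein, and its cells hold that function through a small network of DNA-binding proteins. HNF4A, a nuclear receptor, switches on transporter and metabolic genes as the tubule matures. PAX2, PAX8, LHX1 and EMX2 act earlier, when the embryonic nephron and its duct are laid down, and PAX8 persists in adult tubules. FXR, the product of Nr1h4, is the bile acid receptor and pairs with RXRA, and MAF is a basic leucine zipper factor of mature tubule cells that macrophages also make.

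In senescent against non-senescent PTEC, Hnf4a, Nr1h4 and Maf were down-regulated and Pax2 was up-regulated, and the other 4 genes did not pass the test. Calls rest on edgeR's quasi-likelihood test with Benjamini-Hochberg adjustment over all genes, with limits of 0.05 for adjusted p and 0.5 for log2 fold change in either direction. Of all 15434 genes tested, 20.1% were called up and 19.7% down, beside 1 of 8 up and 3 of 8 down here, and with 8 genes these shares are not read as particular to them. Hnf4a and Nr1h4 moved most, by 7.91-fold and 4.72-fold. DESeq2 also called 4 of the 8. With a culture left out in turn 3 or 4 were called.

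Non-senescent PTEC and 3-month kidneys differed in 7 of the 8 genes, with 5 lower and 2 higher in culture, and 6 or 7 passed with a library left out in turn. Of 16190 genes tested, 33.0% were called up and 32.6% down. Culture and cell makeup differ together here, as does the set of gene identifiers in the count files, and these cannot be told apart. In whole tissue, fewer cells of a type and less RNA per cell cannot be told apart either.

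Between ages no member was called in the kidneys. Over 17067 genes, 2.34% were called in either direction between 24 and 3 months, 2.58% between 12 and 3 months and 1.33% between 24 and 12 months, by edgeR. With the replicate number as a block, the last comparison had 0 of all genes called and still 0 of the 8. Kidneys of different ages share only that number, so this block has no basis in the design. Files of 3-month kidneys listed 54146 identifiers and those of 12- and 24-month kidneys 55401, and total counts were 37311247 to 49471409 against 54097073 to 66894790, so both comparisons with 3 months also cross this difference, and its part was not tested. The count of 0 of 8 was the same with DESeq2 in the 3 comparisons. At an unadjusted p under 0.05 from edgeR, 0, 1 and 2 members passed in these comparisons, where 18.2%, 16.5% and 15.2% of all genes did. Log2 fold changes of the 8 ran from -0.15 (Maf) to 0.49 (Pax8) between 24 and 3 months, from -0.65 (Pax2) to 0.57 (Nr1h4) between 12 and 3 months, and from -0.49 (Nr1h4) to 0.79 (Pax2) between 24 and 12 months.

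**Figure D1:**
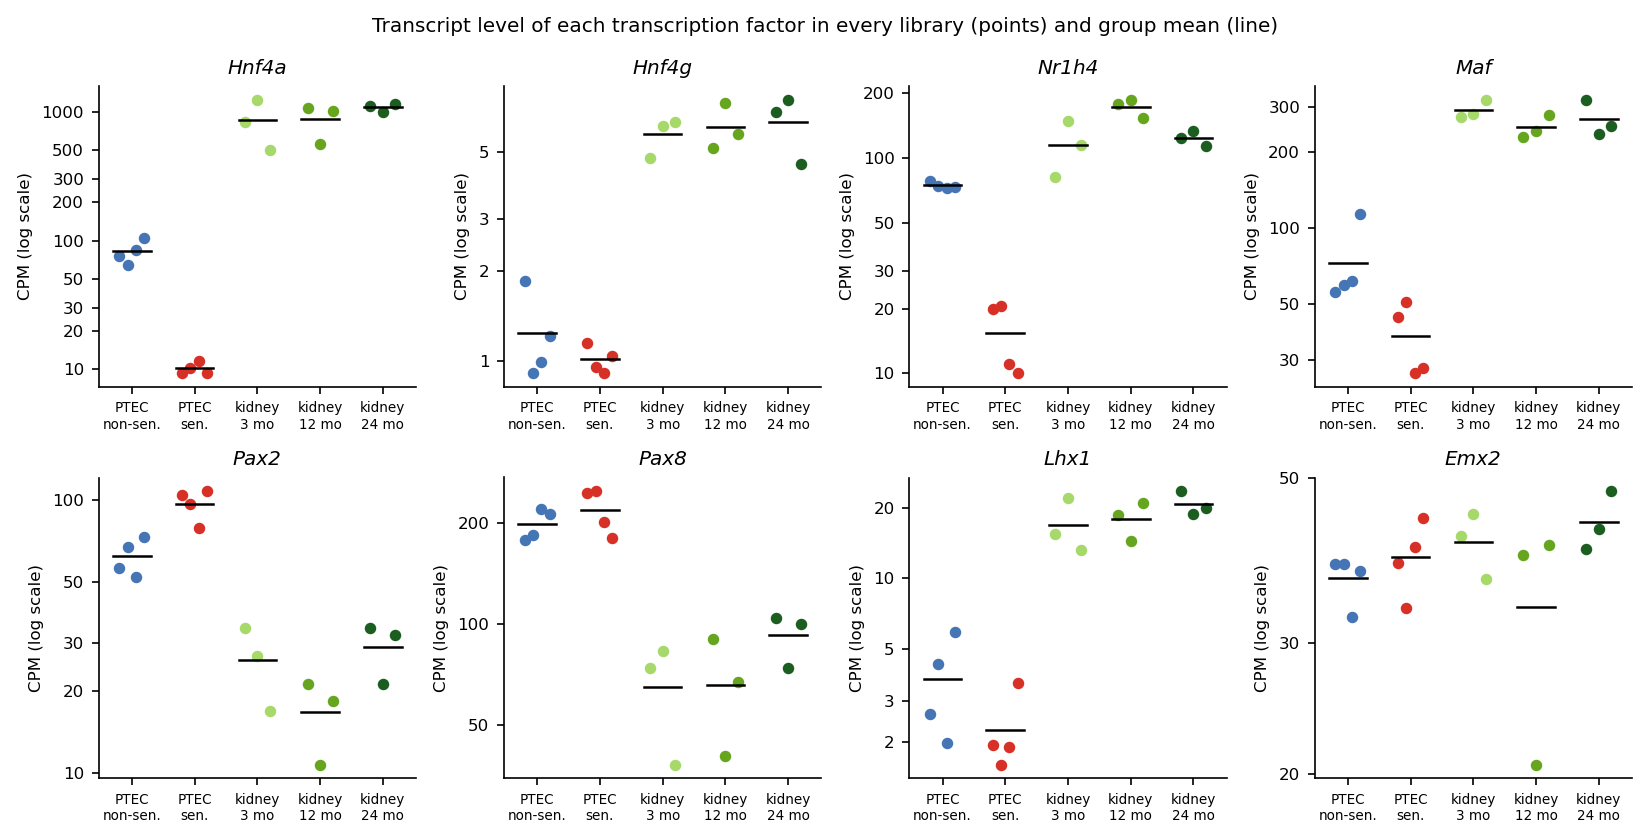
Level of each gene in CPM on a log axis (vertical) in the 5 groups (horizontal), where each point is 1 library and the line is the group mean. Hnf4a falls in 3 tiers, from 500 to 1240 CPM in kidneys, 64.8 to 104 in non-senescent and 9.34 to 11.7 in senescent PTEC, whereas Pax2 lies higher in PTEC than in kidneys and Emx2 has overlapping ranges between neighbouring groups in the order of means, though not between non-senescent PTEC and 24-month kidneys.

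**Figure D2:**
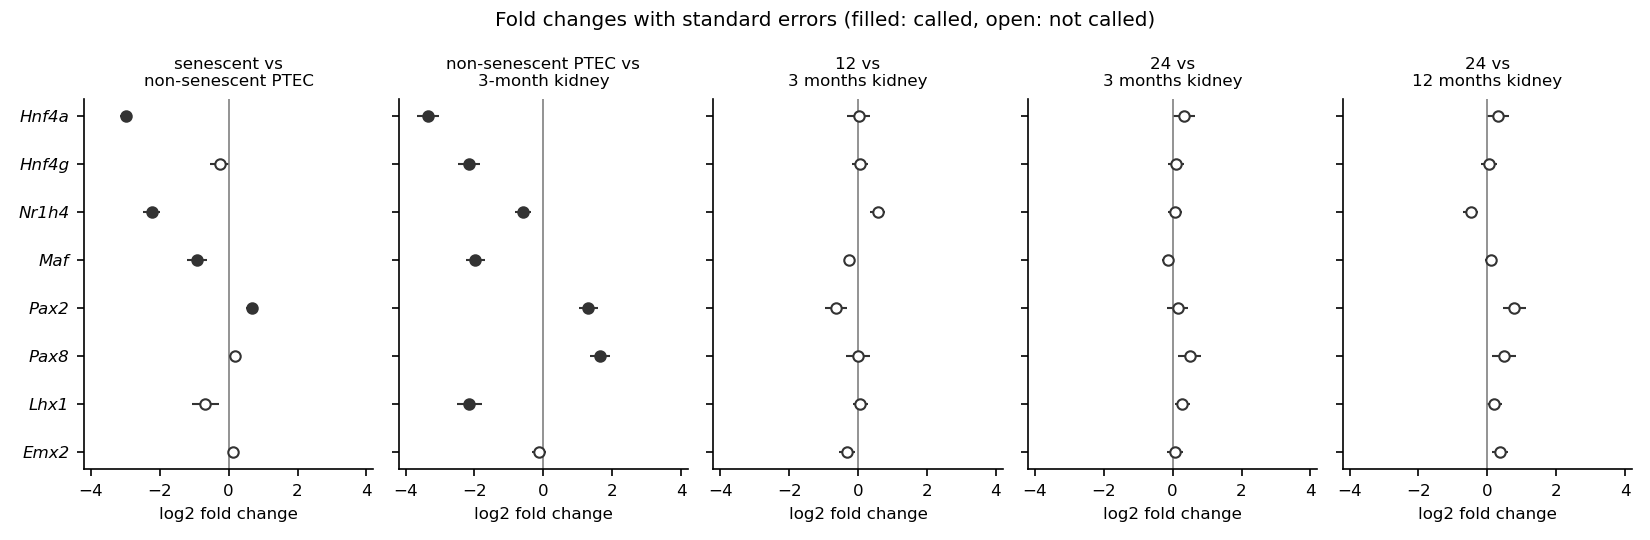
Log2 fold change with its standard error (horizontal) of each gene (vertical) in the 5 comparisons, from edgeR, with filled points for called genes. Filled points appear in the comparisons that involve PTEC (4 and 7 of 8) and in none of the 3 age comparisons.

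Hnf4a (ENSMUSG00000017950) lies on chromosome 2 of GRCm38, from 163506808 to 163572910 on the plus strand. Its levels in the 4 non-senescent cultures were 75.7, 64.8, 84.5 and 104 CPM. The senescent cultures measured 9.44, 10.2, 11.7 and 9.34 CPM, so the highest senescent culture lay far below the lowest non-senescent one. The log2 fold change was -2.98 (SE 0.178, edgeR adjusted p = 3.62e-06) and stayed between -3.09 and -2.84 with a culture left out in turn. Between 349 and 549 reads were still counted on Hnf4a in each senescent culture, and the spread between cultures was small there, with a mean of 10.2 ± 1.07 CPM (SD, n = 4).

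Kidneys had much more Hnf4a. The 3-month kidneys measured 835, 1240 and 500 CPM. The 12-month kidneys measured 1061, 565 and 1020 CPM, and the 24-month kidneys 1114, 1003 and 1154 CPM. The lowest value at 3 and at 12 months came from the kidneys that stood apart, 3-month replicate 3 and 12-month replicate 2, and the ages overlapped. Non-senescent PTEC were 10.1-fold below 3-month kidneys (log2 fold change -3.34, standard error 0.329, edgeR adjusted p = 6.48e-06). Between 24 and 3 months the log2 fold change was 0.32 (SE 0.327, edgeR adjusted p = 0.567), and 0.04 without both of those kidneys. Levels per kilobase of exon make genes comparable with each other, and on that scale Hnf4a was first of the 8 in kidneys of every age, at 178 to 226 CPM per kilobase in the group means. It ranked 3 in non-senescent PTEC at 17.1 CPM per kilobase and 6 in senescent PTEC at 2.11.

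Hnf4g (ENSMUSG00000017688; chromosome 3, 3508030 to 3658052, plus strand) encodes the closest relative of HNF4A and was the lowest of the 8 per kilobase in each group. The non-senescent cultures measured 1.86, 0.915, 0.995 and 1.22 CPM and the senescent ones 1.16, 0.956, 0.913 and 1.04 CPM. The groups overlapped, with 32 to 74 counts per culture behind the first and 37 to 46 behind the second, and the log2 fold change was -0.26 (SE 0.274, edgeR adjusted p = 0.479). In kidneys the values were 4.79, 6.13 and 6.33 CPM at 3 months, 5.17, 7.31 and 5.76 CPM at 12 months, and 6.81, 7.49 and 4.58 CPM at 24 months. Every kidney lay above every culture, and non-senescent PTEC were 4.47-fold below 3-month kidneys (edgeR adjusted p = 0.000159).

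The balance between both HNF4 genes can be read within a library, where no scaling between libraries enters. For every 100 Hnf4a counts there were 2.46, 1.41, 1.18 and 1.17 Hnf4g counts in the non-senescent cultures. In the senescent cultures there were 12.2, 9.34, 7.83 and 11.2. The difference of 2.76 on the log2 scale separated the groups, with p = 0.0286 in an exact two-sided permutation test. That is the smallest that 4 against 4 cultures can give, and it was 0.143 after Benjamini-Hochberg adjustment over the 10 ratio tests made. This difference mostly restates the fall of Hnf4a (log2 fold change -2.98), since Hnf4g was not called (-0.26). Within same-numbered cultures, a pairing that the labels do not state, the ratio was higher in 4 of 4. An exact test of sign changes gave p = 0.125, the smallest that 4 pairs can give. Kidneys held 0.574, 0.495 and 1.26 Hnf4g counts per 100 of Hnf4a at 3 months, 0.488, 1.30 and 0.565 at 12 months and 0.612, 0.747 and 0.397 at 24 months, and the values of 1.26 and 1.30 belonged to 3-month replicate 3 and 12-month replicate 2.

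Nr1h4 (ENSMUSG00000047638; chromosome 10, 89454234 to 89533585, minus strand) was at nearly 1 level in the non-senescent cultures, 78.1, 74.0, 72.5 and 73.1 CPM. The senescent cultures measured 19.9, 20.5, 11.1 and 10.0 CPM, all below, with replicates 3 and 4 lower than replicates 1 and 2. The log2 fold change was -2.24 (SE 0.243, edgeR adjusted p = 0.000108) and stayed between -2.41 and -2.08 with a culture left out in turn. Kidneys measured 81.8, 148 and 114 CPM at 3 months, 177, 186 and 153 CPM at 12 months, and 123, 133 and 113 CPM at 24 months. The 12-month kidneys thus lay above all others but did not pass the test, with log2 fold changes of 0.57 against 3 months (unadjusted p = 0.0229, adjusted p = 0.203) and -0.49 for 24 against 12 months (unadjusted p = 0.0426, adjusted p = 0.310), both from edgeR. Without the 2 kidneys that stood apart these were 0.49 and -0.41.

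Nr1h4 had the smallest difference of the 7 genes called between non-senescent PTEC and 3-month kidneys. The log2 fold change was -0.58 (SE 0.231, edgeR adjusted p = 0.0434). In edgeR this call was lost without non-senescent replicate 1 (adjusted p = 0.0859), 2 (0.0956) or 4 (0.0824), without 3-month replicate 2 (0.185) or 3 (0.0726), without the filter on low counts (0.0743) and with a replicate block (0.0797). The block has no basis in the design here, since cultures and kidneys share only a replicate number. Scaling to total counts alone gave a log2 fold change of -0.03. By level per kilobase Nr1h4 was second in non-senescent PTEC, at 32.3 CPM per kilobase close to Pax8 at 32.8, and second in kidneys of each age.

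The start regions of Hnf4a and Nr1h4 are shown because these genes moved most in senescent PTEC and in the same direction. RefSeq promoter sequences of GRCm38.p6, from 250 bases before to 50 after a start site, were found for 6 of the 8 genes. Hnf4g and Maf had no entry. Both strands were searched for the HNF4 core CAAAGTCCA, letters chosen after the sequences had been read. Matches would be in capitals, and the sequences run 5′ to 3′ along the gene. The Nr1h4 window lies inside the annotated gene, at a start site downstream of the gene's 5′ end.
Hnf4a upstream start, chr2:163506607-163506906, plus strand: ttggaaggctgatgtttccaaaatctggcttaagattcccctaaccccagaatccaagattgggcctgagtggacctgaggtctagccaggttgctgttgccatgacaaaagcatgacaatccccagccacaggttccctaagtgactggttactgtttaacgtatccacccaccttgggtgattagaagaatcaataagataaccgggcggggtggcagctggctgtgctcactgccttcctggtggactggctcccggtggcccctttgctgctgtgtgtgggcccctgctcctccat
Hnf4a downstream start, chr2:163546905-163547204, plus strand: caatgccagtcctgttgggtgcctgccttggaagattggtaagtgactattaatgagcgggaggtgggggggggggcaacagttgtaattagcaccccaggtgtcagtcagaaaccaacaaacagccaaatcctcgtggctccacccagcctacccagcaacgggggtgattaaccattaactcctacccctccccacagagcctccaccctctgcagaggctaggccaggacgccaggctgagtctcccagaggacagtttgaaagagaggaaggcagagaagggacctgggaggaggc
Nr1h4, chr10:89506609-89506908, minus strand: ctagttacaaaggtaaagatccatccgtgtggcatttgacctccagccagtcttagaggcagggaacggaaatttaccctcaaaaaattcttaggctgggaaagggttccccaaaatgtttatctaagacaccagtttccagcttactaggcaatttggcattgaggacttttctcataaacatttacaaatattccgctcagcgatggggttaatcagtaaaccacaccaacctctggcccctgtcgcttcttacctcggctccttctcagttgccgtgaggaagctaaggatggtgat
No window of the 6 genes held these letters, which were found in 0.475% of 32851 mouse promoters of the same length. Their absence says only that this string is not in these windows.

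Maf (ENSMUSG00000055435; chromosome 8, 115682942 to 115707794, minus strand) was at 55.7, 59.1, 61.6 and 114 CPM in the non-senescent cultures. The senescent cultures measured 44.2, 50.7, 26.6 and 27.7 CPM, each below each non-senescent culture. The log2 fold change was -0.93 (SE 0.296, edgeR adjusted p = 0.0290). In edgeR the call was lost without non-senescent replicate 4 (log2 fold change -0.62, adjusted p = 0.0687), senescent replicate 3 (-0.78, 0.0686) or senescent replicate 4 (-0.81, 0.0822). Macrophage markers, summed, moved with Maf among the senescent cultures, at 44.6, 71.9, 25.05 and 24.6 CPM in replicates 1 to 4. They were at 44.7, 66.9, 51.5 and 61.7 CPM in the non-senescent ones. Nr1h4 and Pax8 were also higher in senescent replicates 1 and 2 than in 3 and 4, so this split is not particular to Maf. Emx2 was lower in replicates 1 and 2, and Hnf4a, Hnf4g, Pax2 and Lhx1 did not separate these cultures. Of the 8 macrophage genes, Cd68 alone was called, with a log2 fold change of -1.12. General leukocyte markers summed to 28.8, 39.0, 23.4 and 22.7 CPM in non-senescent and 16.6, 30.1, 12.1 and 15.6 CPM in senescent cultures, lower in each senescent culture than in the non-senescent one of the same number, and 4 of 6 were called down (19.7% of all genes). The part of macrophages and other leukocytes in the Maf difference was not tested. Kidneys measured 274, 282 and 322 CPM at 3 months, 229, 241 and 279 CPM at 12 months and 320, 235 and 253 CPM at 24 months, with overlapping ages, and non-senescent PTEC were 3.93-fold below 3-month kidneys (edgeR adjusted p = 9.16e-05).

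Pax2 (ENSMUSG00000004231; chromosome 19, 44756045 to 44837871, plus strand) was the gene that was up-regulated in senescent PTEC. The non-senescent cultures measured 56.4, 67.1, 52.2 and 73.2 CPM and the senescent cultures 104, 96.4, 79.2 and 108 CPM. The groups did not overlap, with a log2 fold change of 0.67 (SE 0.156, edgeR adjusted p = 0.00696) that stayed between 0.60 and 0.77 with a culture left out in turn. Kidneys had the least, with 34.0, 26.9 and 16.8 CPM at 3 months, 21.3, 10.7 and 18.4 CPM at 12 months and 33.9, 21.3 and 32.0 CPM at 24 months. Non-senescent PTEC were 2.47-fold above 3-month kidneys (log2 fold change 1.31, edgeR adjusted p = 0.00137). Between 24 and 12 months the log2 fold change was 0.79 (unadjusted p = 0.0364, edgeR adjusted p = 0.290), and 0.56 without the 2 kidneys that stood apart. Each 24-month kidney lay above the 12-month kidney of the same number, as also for Hnf4a, Pax8 and Emx2. The shared number is not a pairing, since kidneys of different ages come from different mice. The replicate block gave no call between these ages.

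Pax8 (ENSMUSG00000026976; chromosome 2, 24420560 to 24475599, minus strand) had the highest level per kilobase of the 8 in both kinds of PTEC, at 32.8 and 36.1 CPM per kilobase. Its values were 178, 184, 219 and 213 CPM in non-senescent and 246, 249, 202 and 180 CPM in senescent cultures. These overlapped, and the log2 fold change of 0.18 (SE 0.153, edgeR adjusted p = 0.381) did not pass the test. Kidneys measured 73.7, 83.0 and 38.0 CPM at 3 months, 89.9, 40.3 and 67.1 CPM at 12 months and 104, 73.8 and 99.6 CPM at 24 months. All cultures lay above all kidneys, and non-senescent PTEC were 3.15-fold above 3-month kidneys (log2 fold change 1.65, standard error 0.287, edgeR adjusted p = 0.000398). Hnf4a and Pax8 therefore differed in opposite directions between culture and tissue.

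Within libraries, Pax2 had 31.7, 36.5, 23.8 and 34.3 counts per 100 of Pax8 in non-senescent PTEC and 42.3, 38.8, 39.2 and 59.9 in senescent PTEC. The groups were separate, with a difference of 0.51 on the log2 scale and p = 0.0286 in the exact permutation test, again the smallest possible, and 0.143 after adjustment. Within same-numbered cultures it was higher in 4 of 4, again with p = 0.125 in the exact test of sign changes. In kidneys the ratio was 46.1, 32.4 and 44.4 at 3 months, 23.7, 26.7 and 27.4 at 12 months and 32.5, 28.8 and 32.2 at 24 months. The 12-month kidneys lay below both other ages with p = 0.1 in each exact permutation test, the smallest that 3 against 3 can give, and 0.200 after adjustment. Matching 24- and 12-month kidneys by replicate number has no basis in the design. Matched in that way, the exact test of sign changes gave p = 0.25, the smallest that 3 pairs can give.

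**Figure D3:**
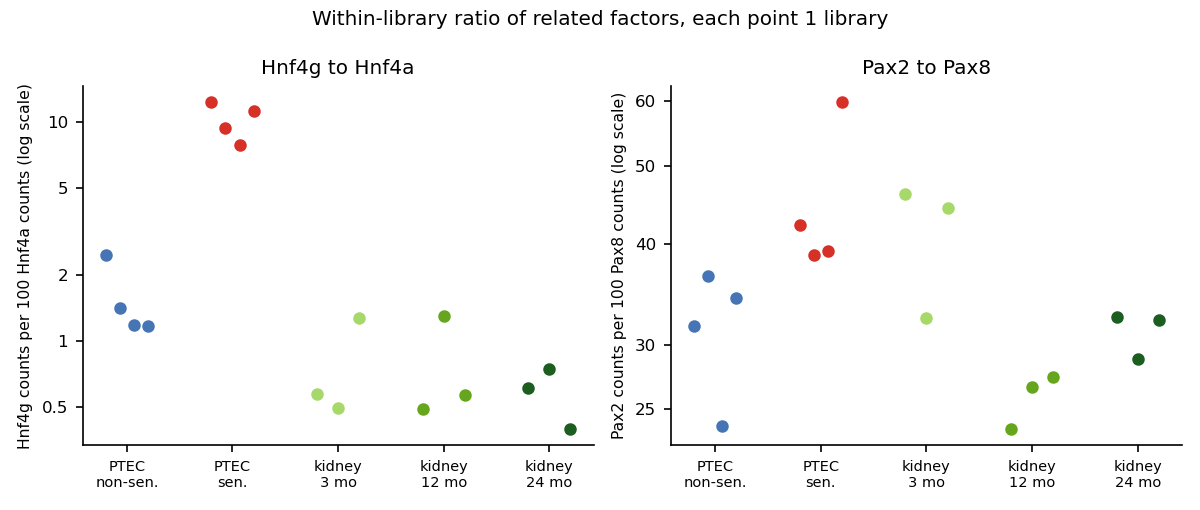
Counts of Hnf4g per 100 of Hnf4a (left) and of Pax2 per 100 of Pax8 (right) on log axes, with 1 point for each library in the 5 groups. Senescent PTEC stand at 7.83 to 12.2 for the HNF4 pair, above all other libraries, and the 12-month kidneys stand at 23.7 to 27.4 for the PAX pair, below the other kidneys.

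Lhx1 (ENSMUSG00000018698; chromosome 11, 84518284 to 84525535, minus strand) had few reads in culture. The non-senescent cultures measured 2.64, 4.29, 1.99 and 5.87 CPM and the senescent ones 1.93, 1.60, 1.91 and 3.59 CPM, from 62 to 203 counts each. With a log2 fold change of -0.68 (SE 0.389, edgeR adjusted p = 0.184) the groups overlapped, although each senescent culture was below the non-senescent one of the same number. With the replicate block the log2 fold change was -0.63 (edgeR adjusted p = 0.0660), also not called. Kidneys measured 15.5, 22.0 and 13.1 CPM at 3 months, 18.6, 14.4 and 20.8 CPM at 12 months and 23.5, 18.8 and 19.9 CPM at 24 months. All lay above the cultures, and non-senescent PTEC were 4.43-fold below 3-month kidneys (edgeR adjusted p = 0.000368).

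Emx2 (ENSMUSG00000043969; chromosome 19, 59458372 to 59465357, plus strand) had ranges that overlapped between each pair of neighbours in the order of the groups. The 24-month kidneys did all lie above the non-senescent cultures, a pair of groups not compared by a test. It was at 38.3, 38.3, 32.5 and 37.5 CPM in non-senescent and 38.5, 33.5, 40.4 and 44.1 CPM in senescent cultures (log2 fold change 0.13, edgeR adjusted p = 0.434). Kidneys measured 41.8, 44.7 and 36.6 CPM at 3 months, 39.4, 20.6 and 40.7 CPM at 12 months and 40.2, 42.7 and 48.0 CPM at 24 months, where the value of 20.6 was 12-month replicate 2. Between non-senescent PTEC and 3-month kidneys the log2 fold change was -0.12 (SE 0.197, edgeR adjusted p = 0.611), and 0.43 when libraries were scaled to total counts alone. Its paralog Emx1 was at a mean of 49.5 CPM in 3-month kidneys and 0.176 CPM in non-senescent PTEC (log2 fold change -8.09, edgeR adjusted p = 1.17e-07). Emx1 had 5, 3, 3 and 14 counts in these cultures and 1740 to 1780 in 3-month kidneys. It passed the filter through the kidneys, which favours a lower value in culture, and its fold rests on few counts.

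Of the genes that overlap a member on the opposite strand, Hnf4aos and Emx2os had the most counts in kidneys. Whether they enter the counts of Hnf4a and Emx2 was not tested. Hnf4aos, antisense to Hnf4a, had 304 to 1641 counts in kidneys, at most 5.87% of those of Hnf4a, and 0 or 1 in a culture. It was highest in the kidneys that stood apart, at 25.2 and 33.2 CPM, where Hnf4a was lowest for its age. Emx2os had 166 to 272 counts in cultures, up to 16.0% of those of Emx2, and 201 to 474 in kidneys, up to 46.5%. It did not pass the test in senescent PTEC (log2 fold change 0.06) or between 24 and 3 months (-0.21). Lhx1os does not overlap Lhx1 and was at 18.3 CPM in 3-month kidneys and 0.436 CPM in non-senescent PTEC. Genes overlapping Maf, Pax2, Pax8 and Hnf4g had at most 19 counts in a library.

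**Figure D4:**
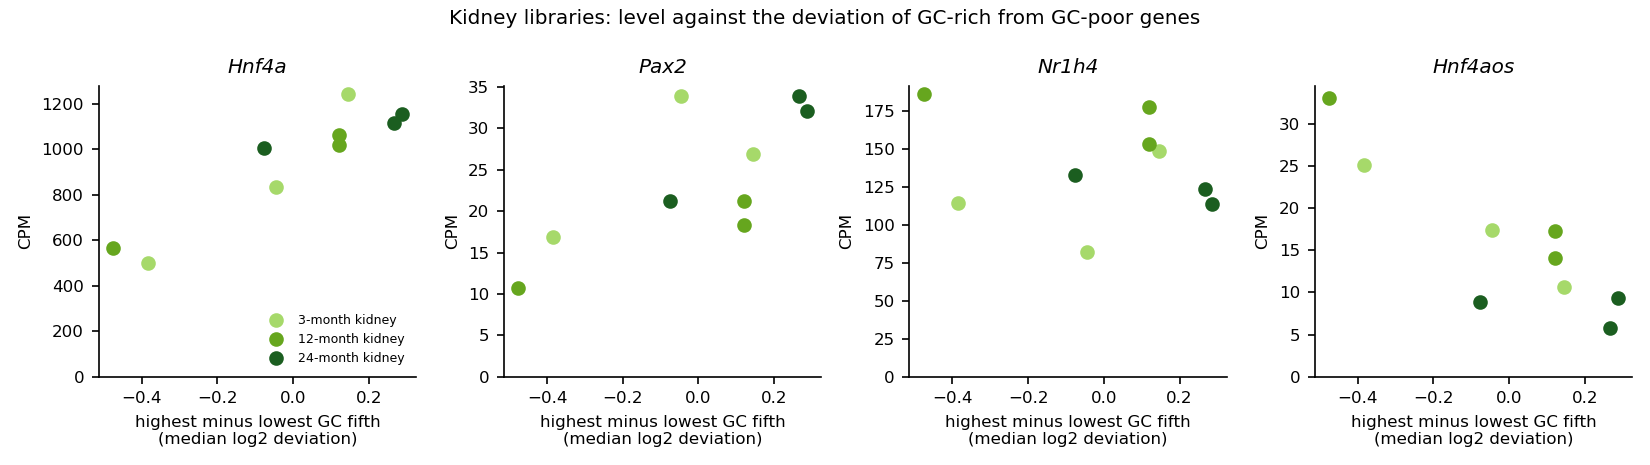
Level in CPM (vertical) of Hnf4a, Pax2, Nr1h4 and Hnf4aos in the 9 kidneys against the median log2 deviation of the highest minus the lowest quintile of genes by GC content (horizontal), with 1 point for each kidney. The kidneys at -0.475 and -0.384 have Hnf4a at 565 and 500 CPM, the 2 lowest values, and Hnf4aos at 33.2 and 25.2 CPM, the 2 highest.

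Hnf4a, Pax2, Pax8, Lhx1 and Emx2 each had the lowest value of its age in 3-month replicate 3 and in 12-month replicate 2, but Hnf4g was highest of its age in both, Maf in 3-month replicate 3 and Nr1h4 in 12-month replicate 2. By transcript GC content, Hnf4a, Lhx1 and Emx2 belong to quintile 4 and Pax2 to quintile 5, the most GC-rich, whereas Pax8 belongs to quintile 3, Maf and Nr1h4 to 2 and Hnf4g to 1. By transcript length, Maf belongs to the longest quintile. The part of this difference between libraries in the age comparisons was not tested beyond leaving both kidneys out, after which still no member was called. Of macrophage and lymphocyte markers 1 of 7 and 5 of 8 tested genes were up between 24 and 3 months (1.89% of all genes), and 3 of 7 and 3 of 8 without the 2 kidneys that stood apart (1.46%). Of distal and collecting duct markers 2 of 10 were down between 12 and 3 months (1.36% of all genes), and 0 without those kidneys (0.199%). They summed to 1870 to 2146 CPM at 3 months, 1084 to 1521 CPM at 12 months and 1438 to 1935 CPM at 24 months. The part of these cell types in the values of the 8 genes, such as Pax2 at 12 months, was not tested.

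Of 12 genes that work with these factors, 11 were tested in senescent PTEC, with 0 up and 5 down, where 20.1% of all genes were called up and 19.7% down. Their median log2 fold change was -0.18 against -0.00 over all genes. Mlxipl, which encodes the glucose-responsive factor ChREBP, fell most (-3.24, edgeR adjusted p = 0.000890), from 11.01, 10.5, 28.3 and 51.7 CPM to between 2.39 and 3.12 CPM. Ppargc1a, a coactivator of mitochondrial genes, had a log2 fold change of -2.07, and Ppara and Vdr, nuclear receptors for fatty acids and vitamin D, had -1.71 and -0.81. Rxra, the dimer partner of FXR, was not called (0.01, edgeR adjusted p = 0.954), nor was the coactivator Ncoa1, the highest at 0.34.

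In non-senescent PTEC against 3-month kidneys 8 of these 12 genes were down and 0 up (32.6% and 33.0% of all genes). Nr0b2 was the lowest (log2 fold change -6.34) and Ncor1 the highest (0.05, not called). Nr0b2 had 2, 0, 0 and 1 counts in these cultures and 61 to 79 in 3-month kidneys. It passed the filter through the kidneys, which favours a lower value in culture, and its fold rests on few counts. Between 24 and 3 months 0 of the 12 genes were called. Their median was 0.34, and 0.23 without the 2 kidneys that stood apart.

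FXR targets could be read in part, since 3 of 8 were tested in senescent PTEC, of which 2 were down and 0 up (19.7% and 20.1% of all genes). Slc51b, a subunit of the basolateral bile acid exporter, had 44, 37, 123 and 147 counts in non-senescent and 6, 19, 17 and 27 counts in senescent cultures (log2 fold change -2.52, edgeR adjusted p = 0.00886). Slc10a2, the apical bile acid carrier, had 22, 9, 27 and 71 counts in non-senescent and 6, 4, 9 and 11 in senescent cultures. Its log2 fold change was -2.26 (edgeR adjusted p = 0.0178). Abcb4, a phospholipid exporter, was not called (0.09). Genes high in 1 group alone also pass the filter on low counts, which favours a fall, so 2 of 3 is not read further. Nr0b2, the FXR-induced repressor SHP, had 0 to 2 counts in any culture against 51 to 143 in any kidney. In non-senescent PTEC against 3-month kidneys, Slc51a and Slc10a2 had log2 fold changes of -7.58 and -6.92, Abcb4 had 1.56 and Nr1h4 had -0.58. Slc51a had 1, 4, 29 and 50 counts in these cultures and 4112 to 4382 in 3-month kidneys. It passed the filter through the kidneys, which favours a lower value in culture, and its fold rests on few counts. Nr0b2 was called between 24 and 12 months (1.07, edgeR adjusted p = 0.0443), a call lost without the 2 kidneys that stood apart (1.03, 0.0798 from edgeR). Slc51a went the other way, from 180 to 235 CPM at 12 months to 94.1 to 142 CPM at 24 months. Without those 2 kidneys the 5 tested targets ran from -0.91 (Slc51a) to 0.78 (Slc10a2) between these ages, with 0 called. No FXR target of the 5 tested was called between 24 and 3 months, where Slc27a5 was highest (0.49) and Slc51b lowest (-0.57).

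**Figure D5:**
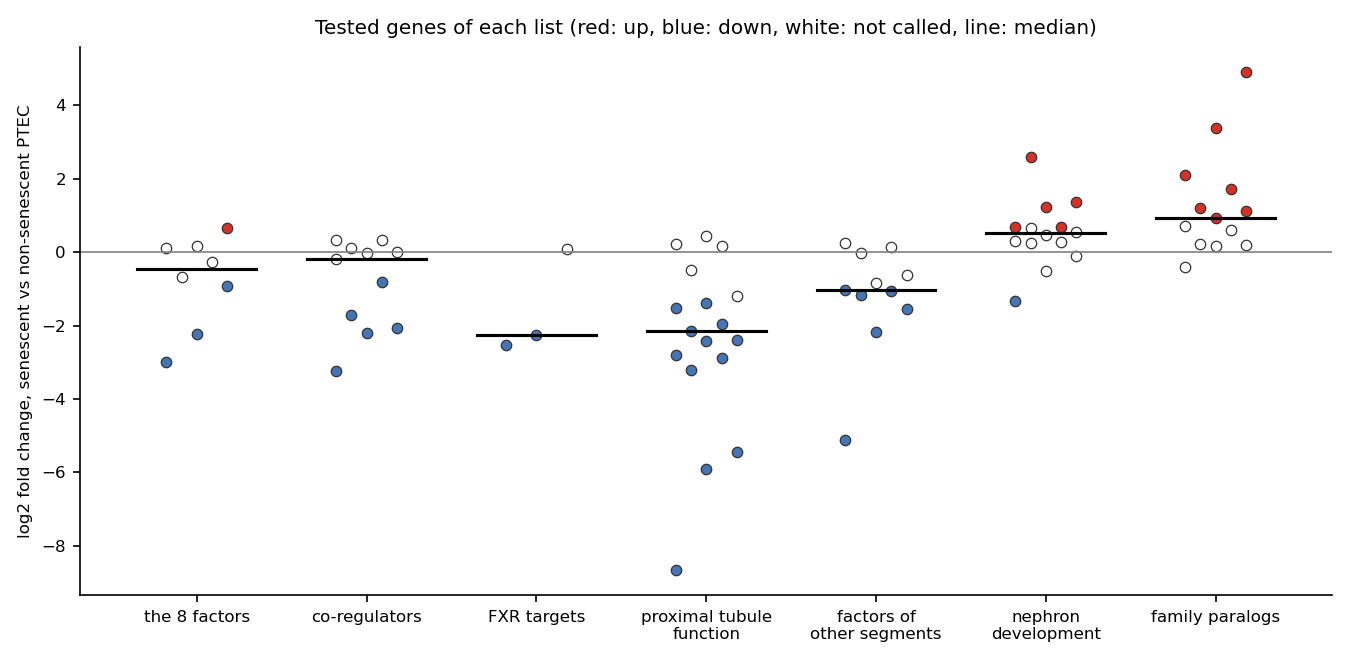
Log2 fold change in senescent against non-senescent PTEC (vertical) of the tested genes of 7 lists (horizontal), with 1 point for each gene, coloured where called, and a line at each list's median. Proximal tubule function genes (median -2.15) lie mostly below 0 and family paralogs (median 0.93) mostly above. Genes high in 1 group alone also pass the filter on low counts, which can shift these medians.

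Genes of proximal tubule function, many of which HNF4A is known to activate, had 17 of 26 tested in senescent PTEC. Of the tested genes 0 were up and 12 down (20.1% and 19.7% of all genes). The median log2 fold change was -2.15 against -0.00 over all genes. Of the 26, 20 had a mean of at least 1 CPM in non-senescent and 10 in senescent PTEC. Genes high in 1 group alone also pass the filter on low counts, so this count and median lean towards a fall. The 26 genes summed to 404, 378, 1016 and 2285 CPM in non-senescent replicates 1 to 4 and 432, 303, 335 and 475 CPM in senescent ones. Without Lrp2, which encodes the endocytic receptor megalin, the other 25 summed to 322, 294, 964 and 1862 CPM in non-senescent and 184, 167, 242 and 245 CPM in senescent cultures, lower in each senescent culture than in the non-senescent one of the same number. Lrp2 was at 81.9, 83.8, 52.0 and 423 CPM in non-senescent and 248, 136, 92.2 and 229.9 CPM in senescent cultures and was not called (0.17, edgeR adjusted p = 0.853), and Anpep was the highest at 0.45. Against 3-month kidneys 26 of 26 were lower in non-senescent PTEC (32.6% of all genes) with a median of -6.27 (0.05 over all genes). They ran from Slc22a6 at -13.61 to Slc7a7 at -1.28. Slc22a6 had 1, 0, 4 and 9 counts in these cultures, so its fold rests on few counts. It passed the filter through the kidneys, which favours a lower value in culture. Between 24 and 3 months 5 of 26 were up and 0 down (2.34% of all genes in either direction), with a median of 0.33 (0.00 over all genes), led by the glucose carrier Slc5a2 (1.88, edgeR adjusted p = 0.00997), and Aqp1 was the lowest at -0.33. Without the 2 kidneys that stood apart 3 of 26 were up, Slc5a2, Slc5a12 and Miox, with a median of 0.22.

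Of factors of other nephron segments 6 of 11 tested genes were down in senescent PTEC and 0 up, where 19.7% of all genes were called down and 20.1% up. Elf5, a collecting duct factor, was the lowest. It had 102, 140, 173 and 327 counts in non-senescent and 2, 0, 13 and 9 in senescent cultures. Elf5 passed the filter on low counts through the non-senescent cultures, which favours a fall. Of all 12 factors, 11 had a mean of at least 1 CPM in non-senescent and 10 in senescent PTEC. Irx1 was the highest (0.26, not called). Of loop of Henle markers 5 of 6 were down. Their summed levels were 16.4 to 44.4 CPM in non-senescent and 3.13 to 6.08 CPM in senescent cultures. All 6 had a mean of at least 1 CPM in non-senescent PTEC but only 2 in senescent PTEC, so the filter favoured a fall here too. Of fibroblast and pericyte markers 4 were up and 1 down of 7 tested, and of general leukocyte markers 4 of 6 were down. The part of these cell types in the differences of the 8 genes was not tested.

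Other nephron development factors gave 5 up and 1 down of 14 tested in senescent PTEC, where 20.1% of all genes were called up and 19.7% down. Hoxd11, Osr1, Sox4 and Sall1 had log2 fold changes of 1.37, 1.24, 0.69 and 0.68, and Gata3 fell by 1.32. Wt1, which is kept by podocytes in the adult, was not called (-0.11, edgeR adjusted p = 0.880), while 3 of 4 tested podocyte markers were up. Non-senescent PTEC had Sox9, which tubule cells switch on when they repair, at 47.1 CPM against 0.860 CPM in 3-month kidneys (log2 fold change 5.82, edgeR adjusted p = 5.65e-08). Between 24 and 3 months Sox9 was the 1 gene called of 11 tested, where 1.89% of all genes were called up and 0.451% down. Sox9 was at 2.10 against 0.860 CPM (1.26, edgeR adjusted p = 0.0472). This call was lost without the 2 kidneys that stood apart (1.16, 0.0974 from edgeR).

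Of 24 relatives of the 8 genes 13 were tested in senescent PTEC, with 7 up and 0 down (20.1% and 19.7% of all genes) and a median of 0.93. The filter on low counts also keeps genes high in the senescent cultures alone, so this count and median can lean towards a rise. Maff and Mafk, small MAF proteins without an activation domain, were at 103 and 70.4 CPM in senescent against 46.1 and 37.8 CPM in non-senescent cultures. Lhx4, LIM homeobox relative of Lhx1, had 60, 37, 22 and 26 counts in senescent cultures, 0, 3, 0 and 1 in non-senescent ones and 0 in every kidney. Lhx4 passed the filter through the senescent cultures, which favours a rise. Lhx9 had 88 to 231 counts in the non-senescent cultures and at most 2 in a kidney.

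The 2 genes most like each member over the 17 libraries were found among 13935 genes by the root mean square difference of log2 CPM after centring each gene, which is a description and carries no test. For Hnf4a they were Xylb (0.283) and Sult1c2 (0.343), against a median of 2.75 over all genes. Xylb, which encodes xylulokinase, was at 31.6 to 77.8 CPM in non-senescent PTEC, 7.31 to 8.64 in senescent PTEC and 264 to 783 in kidneys. For Nr1h4 they were Hmgcs1 (0.285) and Acat2 (0.373), both enzymes of the early sterol pathway, with Hmgcs1 at 396 to 541 CPM in non-senescent and 77.1 to 113 CPM in senescent cultures. Maf was nearest to Lifr (0.227) and Btd (0.296), Pax2 to Mfsd6 (0.239) and Bicc1 (0.258), and Pax8 to Slc4a2 (0.195) and Map1s (0.198). Hnf4g was nearest to Asb13 (0.249) and 1810014B01Rik (0.275), Lhx1 to Ptprd (0.286) and Mtss1 (0.319), and Emx2 to Msl1 (0.168) and Slc45a4 (0.170). Among the 8 genes themselves Pax2 and Pax8 were the closest pair (0.345), followed by Hnf4g and Maf (0.469). The libraries share their group differences, which enter this measure with the rest.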

How the data were processed

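Poly(A) RNA of 8 PTEC cultures and 9 kidneys was sequenced with a directional kit, and the authors deposited raw counts per gene, made with nf-core/rnaseq on GRCm38 with a GENCODE annotation. The aligner, the counter and its strand setting are not given in the sources used here. The files hold 3 sets of identifiers, for PTEC, for 3-month and for older kidneys, and 53313 are shared.

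Counts were tested with edgeR 4.0.16 in R 4.3.3 (quasi-likelihood, TMM scaling, filterByExpr, robust, Benjamini-Hochberg) within PTEC, over all 9 kidneys, and between non-senescent PTEC and 3-month kidneys. All 8 genes passed the filter in every comparison. The filter also keeps genes that are high in 1 group alone, so counts and medians of the lists can lean that way. Levels in CPM come from 1 TMM scaling of the 17 libraries, and lengths from GENCODE M21. Ratios of counts, with 0.5 added in the alternative, were compared by exact two-sided permutation tests. Scripts were tested on simulated data. Total counts ran from 26963442 to 66894790 per library, and standard errors also hold the spread between samples.

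The 8 genes and the lists were chosen with earlier results of these data known. Named were the 8 genes, antisense partners, the highest and lowest of each list, Rxra, Nr0b2, Wt1, Slc34a1, Lrp2 and the 2 nearest profiles of each, and other genes were named after their values were seen. Some genes this rule covers are not reported here. Same-numbered cultures deviated together (r = 0.186 to 0.613 over 15383 genes). Same-numbered 24- and 12-month kidneys, which are different mice, also did so (0.174 to 0.559), so these correlations cannot show pairing. The labels do not state a pairing of the cultures either. Reported values come from fits and tests without the block, and the blocked fit is an alternative. Alternatives were DESeq2 1.42.0, other scalings, no filter, a stricter fold, a replicate block and leaving out libraries.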

Additional observations from a re-analysis of the deposited data

Results flagged for a closer look

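Maf in non-senescent PTEC replicate 4 was 114 CPM, far from the next culture at 61.6 CPM, a gap of 0.898 of the group's range. That culture also had the highest summed proximal tubule markers (2285 CPM against 378 to 1016 in the other non-senescent cultures), and the Maf call was lost without it (edgeR log2 fold change -0.62).

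Lhx1 in senescent PTEC replicate 4 was 3.59 CPM, with the next culture at 1.93 CPM (0.833 of the range). Emx2 in non-senescent PTEC replicate 3 was 32.5 CPM, with the next at 37.5 CPM (0.861 of the range). These 3 values stood apart among 16 groups of 4 cultures checked, where chance gives about 1 in 20.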

How the results depend on the processing

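Over the alternatives tried, 589 of 632 log2 fold changes of the 8 genes kept direction and side of the threshold, 14 lost the call and 29 changed sign. Of 79 counts of genes called among the 8, 78 stayed within 1.5 times, a limit that lets 4 fall to 3 in senescent PTEC. Between ages these counts were 0 in every alternative, so they add little to that share. With a log2 fold change above 1 required, 2 and not 4 genes were called in senescent PTEC. The replicate block changed no call of the 8 there (Maf -0.91, edgeR adjusted p = 0.0448) and ended that of Nr1h4 against 3-month kidneys (-0.53, 0.0797). Cultures and kidneys share only a number, as do kidneys of different ages, so the block has no basis in those comparisons. Same-numbered kidneys correlated at 0.174 to 0.559 between 24 and 12 months but at -0.703 to -0.0343 with 3 months (over 17033 genes), and under the block 126, 118 and 0 of all genes were called for 24 against 3, 12 against 3 and 24 against 12 months.

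Small kidney values changed sign. Without the 2 kidneys that stood apart, an alternative chosen after seeing the data, Pax2 and Emx2 were -0.10 and -0.015 for 24 against 3 months, and Hnf4a and Hnf4g -0.032 and -0.036 for 12 against 3 months. Scaled to total counts, Hnf4a was -0.0078 for 12 against 3 months and Emx2 0.43 for PTEC against kidney, and unfiltered Pax8 was 0.017 for 12 against 3 months. With a library left out in turn, values for 24 against 3 months ran from -0.034 to 0.29 for Hnf4g, -0.091 to 0.39 for Pax2, -0.11 to 0.30 for Nr1h4 and -0.010 to 0.13 for Emx2. For 12 against 3 months they ran from -0.25 to 0.38 for Hnf4a, -0.10 to 0.18 for Hnf4g, -0.28 to 0.25 for Pax8 and -0.082 to 0.30 for Lhx1, and for 24 against 12 months from -0.10 to 0.23 for Hnf4g and -0.041 to 0.20 for Maf. The cause was not tested.

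Counts over all genes depended on the setting in kidneys. They were 399, 441 and 227 with edgeR, 1035, 1107 and 779 with DESeq2, and 321, 80 and 67 without the 2 kidneys, in the order above. With 2 ages alone in the fit they were 265 for 24 against 3 and 64 for 12 against 3 months. With a kidney left out they ran from 74 (without 3-month replicate 1) to 794 (without 3-month replicate 2) for 24 against 3 months, from 52 (without 12-month replicate 3) to 716 (without 3-month replicate 2) for 12 against 3 and from 1 (without 12-month replicate 1) to 378 (without 3-month replicate 2) for 24 against 12. In senescent PTEC 3753 of 6144 genes had a log2 fold change above 1. Hnf4g and Lhx1 had the lowest counts of the members in culture, at 32 to 203 in a culture.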
